A study of Mus musculus with 6 samples.

Results

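The 4 Janus kinase genes Jak1, Jak2, Jak3 and Tyk2 and the 5 STAT genes Stat2, Stat3, Stat4, Stat5a and Stat6 were followed in tumor-associated macrophages (TAMs) from mice with floxed Pdcd1, with and without LysMCre, a cross meant to delete in myeloid cells Pdcd1, the gene of the inhibitory receptor PD-1. The 9 genes were chosen by symbol, and each matched 1 Ensembl identifier in the count table, which holds 55421 genes, and in the normalized table, which holds 16552 genes. All 9 passed the expression filter and were among the 14469 genes tested. Stat5a has a closely related paralog, between which the counting could have divided reads, and the other STAT family members were not analysed here. The TAMs were live cells that were CD45+, CD11b+ and F4/80+ and lacked Ly6G, sorted on day 15 from M17 (MC17-51) fibrosarcomas grown under the skin of mice that were 8 to 12 weeks old at implantation. All mice carried floxed Pdcd1 alleles. Pdcd1f/f mice had no Cre and were the controls, and Pdcd1f/fLysMCre mice also had LysMCre, a Cre recombinase placed in the lysozyme gene Lyz2, which is used in macrophages, monocytes and neutrophils alike. Each genotype had 3 libraries. The labels do not say whether a library came from 1 mouse or from several, so that the p-values measure the spread between these libraries.

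Janus kinases are tyrosine kinases bound to the inner tails of cytokine receptors that have no kinase of their own. When a cytokine joins the receptor chains, the kinases phosphorylate the tails and the STAT proteins that dock there, and the STATs pair and move to the nucleus, where they bind DNA and alter transcription. In macrophages this pathway carries the signals of interferons, of IL-6 and IL-10 through STAT3, of IL-4 and IL-13 through STAT6, and of GM-CSF through STAT5. The kinases and STATs are regulated mainly by phosphorylation, which RNA counts do not measure.

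The libraries held between 41833823 and 51417209 counts. When each library was set against its genotype mean over 9830 genes, its deviations fell with transcript GC content in Pdcd1f/f replicate 1 and Pdcd1f/fLysMCre replicate 2 (Spearman rho −0.782 and −0.728) and rose with it in the other 4 libraries (0.202 to 0.744), so that results for the 9 genes and counts for the gene lists are also given with offsets for GC content and without these 2 libraries. Lyz2, which LysMCre disrupts, fell by 8.99 on the log2 scale (standard error, SE, 0.10), which matches the Cre label. It had 207974 to 225226 normalized counts in the controls and 405 to 465 in the Pdcd1f/fLysMCre libraries. The genotypes thus differ in Lyz2 as well as in the cross aimed at Pdcd1, and these cannot be told apart. Pdcd1 itself had 10, 12 and 15 counts in the controls and 7, 16 and 11 in the Pdcd1f/fLysMCre libraries, which overlapped. Its log2 fold change was −0.25 (95% interval −1.24 to 0.74, edgeR adjusted p = 0.771). A near-complete loss of counts over the gene lies outside this interval and was not seen. A smaller fall within the interval could not be told from no change at this depth. Counts were summed over the whole gene, so deletion of its floxed part alone was not tested. Summed transcripts of 4 Y-linked genes lay between 1545 and 1914 normalized counts in control TAMs and between 6267 and 7233 in Pdcd1f/fLysMCre TAMs, so the mix of sexes and the genotype cannot be told apart. None of the 9 genes lies on a sex chromosome. All 9 macrophage markers reported were abundant, and 5 of them (Adgre1, Csf1r, C1qa, C1qb and C1qc) were lower in Pdcd1f/fLysMCre TAMs, against 3.01% of all genes. Among the others, Cd14 (log2 fold change 0.15) lay higher in every Pdcd1f/fLysMCre library without passing, Fcgr1 (−0.21) lay lower in every one without passing, and Itgam (−0.16) and Cd68 (−0.06) overlapped. In sorted bulk RNA, fewer cells of a type and less RNA per cell cannot be told apart.

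The levels of the 9 transcripts were compared first, per length of exon, as RPKM (counts per kilobase of merged exon, scaled for library size). In control TAMs Stat6, the STAT of IL-4 and IL-13, had 42.1 ± 2.79 RPKM and Jak1, the kinase shared by interferon, IL-6, IL-10 and common gamma chain receptors, had 39.9 ± 1.07 (SD, n = 3 each). The ranges of these 2 genes overlapped, and both lay above 91% of all tested genes (91.6% for Stat6 and 91.2% for Jak1). They were followed by Stat3 at 28.8 ± 0.862, Jak2 at 18.7 ± 1.11 and Stat2 at 14.1 ± 0.445 RPKM. Jak3, which pairs with the common gamma chain, had 9.46 ± 1.69 RPKM and Tyk2, a kinase of the interferon, IL-10 and IL-12 receptors, 8.08 ± 1.12, and the ranges of this pair also overlapped. Stat5a had 4.11 ± 0.360 RPKM, and Stat4, the STAT of IL-12 best known from T and NK cells, had 0.948 ± 0.0281, 44.4 times less than Stat6 and above 28.1% of tested genes. In Pdcd1f/fLysMCre TAMs the order was the same except within the 2 overlapping pairs, where Jak1 (40.6 ± 2.19) came before Stat6 (39.5 ± 1.03) and Tyk2 (6.94 ± 0.566) before Jak3 (6.62 ± 1.18). Division by the longest transcript in place of all exons put Jak1 (58.8) before Stat6 (49.1) and Stat2 (19.1) before Jak2 (18.7) in the controls, so neither of these orders is independent of the length used.

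**Figure D1:**
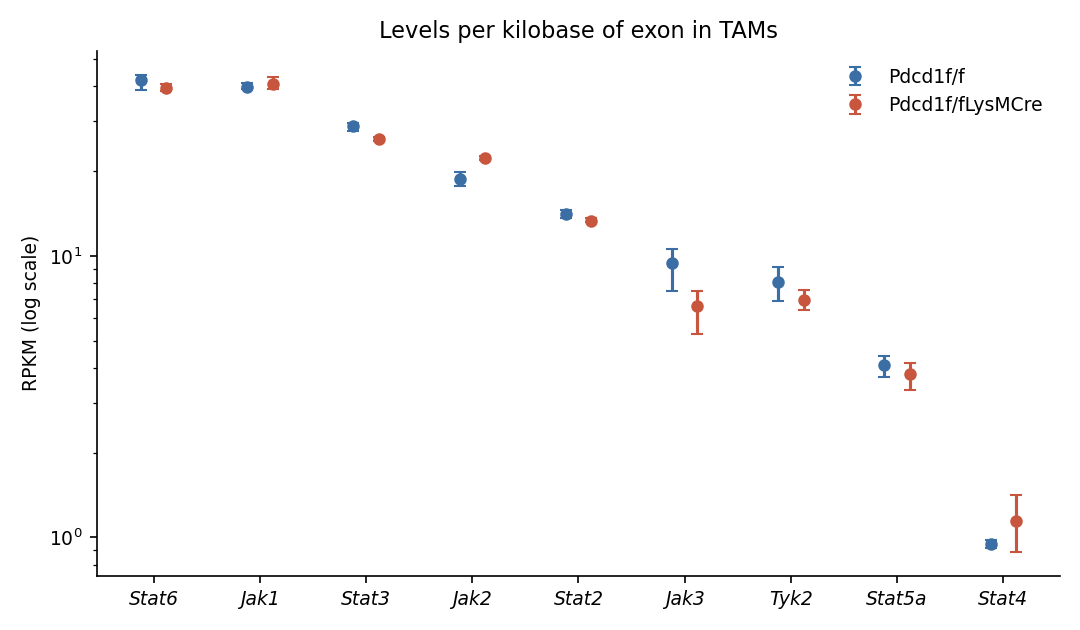
RPKM of the 9 JAK and STAT genes in TAMs on a log scale, ordered by the level in Pdcd1f/f TAMs. Points are means of 3 libraries and bars run from the lowest to the highest library, with Pdcd1f/f in blue and Pdcd1f/fLysMCre in orange. Stat6 and Jak1 are the most abundant at about 40 RPKM, and Stat4 is lowest at 0.948 and 1.14 RPKM.

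The 250 bases before the transcription start were read for 11 starts of the 9 genes (RefSeq, GRCm38.p6) and searched for TTCNNNGAA and TTCNNNNGAA, the palindromic letters that STAT dimers bind with a spacing of 3 or 4 bases, and for GAAANNGAAA on both strands, the letters of the interferon-stimulated response element that STAT2 reaches with IRF9. Of 32851 promoters of this length 7.02%, 5.85% and 2.98% held them. Of the 11 windows, those of Stat2 and of the downstream start of Stat4 held a match. They are shown with the matches in capitals, next to the windows of Jak2 and Jak3, the kinases with the highest and the lowest fitted change, which held none. All 4 are on the plus strand and read 5′ to 3′. A match describes the letters only and is not a measured binding site.
Stat2, chr10:128270248-128270497: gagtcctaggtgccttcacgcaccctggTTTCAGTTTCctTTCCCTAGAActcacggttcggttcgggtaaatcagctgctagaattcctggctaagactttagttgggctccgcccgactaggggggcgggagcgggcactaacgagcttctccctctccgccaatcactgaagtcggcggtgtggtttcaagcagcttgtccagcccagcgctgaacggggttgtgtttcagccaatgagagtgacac
Stat4, chr1:52007990-52008239: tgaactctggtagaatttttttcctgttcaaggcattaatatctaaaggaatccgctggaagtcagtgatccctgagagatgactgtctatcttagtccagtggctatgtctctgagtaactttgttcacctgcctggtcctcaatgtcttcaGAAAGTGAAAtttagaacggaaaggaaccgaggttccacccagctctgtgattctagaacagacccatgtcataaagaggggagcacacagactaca
Jak2, chr19:29251553-29251802: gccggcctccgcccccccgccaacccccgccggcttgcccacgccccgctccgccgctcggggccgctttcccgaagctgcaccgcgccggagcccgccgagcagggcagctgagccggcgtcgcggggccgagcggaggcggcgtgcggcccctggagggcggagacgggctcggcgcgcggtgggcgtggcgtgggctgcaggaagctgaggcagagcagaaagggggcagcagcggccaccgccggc
Jak3, chr8:71676133-71676382: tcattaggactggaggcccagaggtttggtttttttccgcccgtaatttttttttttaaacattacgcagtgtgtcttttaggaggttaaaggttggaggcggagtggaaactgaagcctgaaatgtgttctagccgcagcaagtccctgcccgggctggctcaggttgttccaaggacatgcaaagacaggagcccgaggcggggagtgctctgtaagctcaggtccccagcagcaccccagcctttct
In Stat2 the GAAANNGAAA letters lie on the reverse strand 222 to 213 bases before the start, and the TTCNNNNGAA match follows at 210 to 201 bases. In Stat4 the single GAAANNGAAA match lies 97 to 88 bases before the start. The window of Jak2 is 80.8% G and C and that of Jak3 52.4%.

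Whether the genotype went with a change in these transcripts was tested with edgeR on the raw counts. Of the 9 genes, only Jak2 passed the threshold of 0.05 on the adjusted p-value, and it was higher in Pdcd1f/fLysMCre TAMs. Over all genes 5.43% passed (2.42% higher and 3.01% lower). The median log2 fold change of the 9 genes was −0.09 and that of all genes −0.00. In 4 of the 9 genes the genotypes did not overlap, Jak2 with the Pdcd1f/fLysMCre libraries above, and Jak3, Stat2 and Stat3 with the Pdcd1f/f libraries above. This held for 27.2% of all tested genes (14.1% and 13.1% in these directions).

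**Figure D2:**
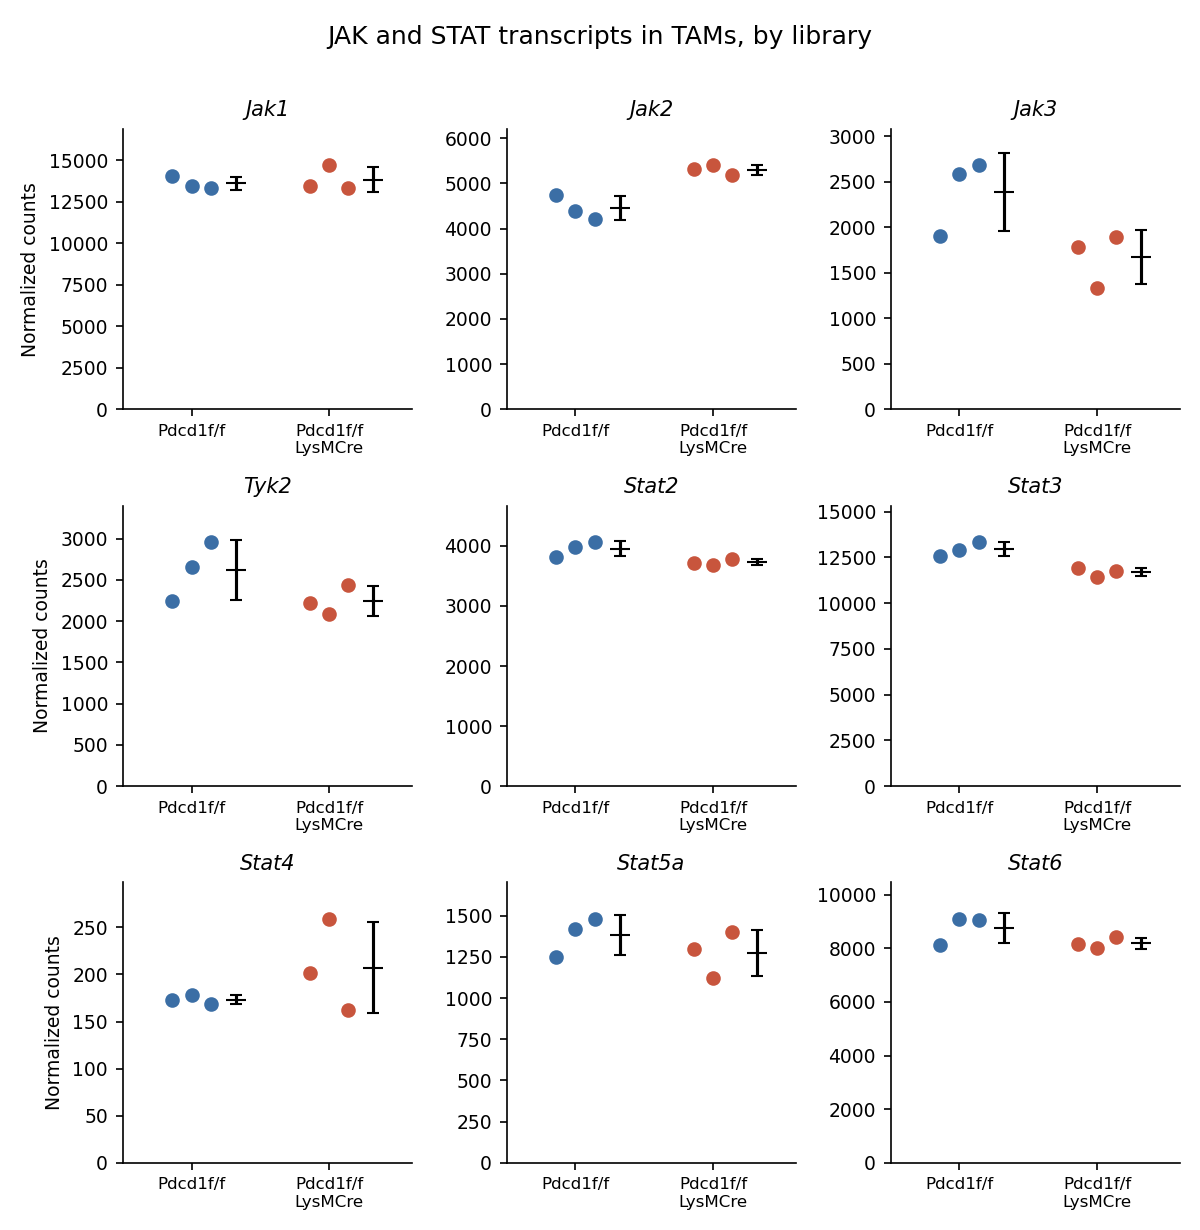
Normalized counts, as the authors scaled them, of the 9 JAK and STAT genes in each TAM library. Circles are the libraries in order of replicate number, Pdcd1f/f in blue and Pdcd1f/fLysMCre in orange, and the black mark and bar are the mean and SD of 3 libraries. The genotypes separate for Jak2, Jak3, Stat2 and Stat3 and overlap for the other 5 genes.

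Jak2, on chromosome 19 of GRCm38 from 29251828 to 29313080, encodes the kinase of the GM-CSF, IL-3, IL-5, erythropoietin and interferon-gamma receptors. It had 4732, 4398 and 4209 normalized counts in the 3 controls, in order of replicate number, and 5308, 5395 and 5189 in the Pdcd1f/fLysMCre libraries. All 3 Pdcd1f/fLysMCre libraries were above all controls, and they were closer to each other than the controls were. The mean rose from 4446 ± 265 to 5298 ± 103 (SD, n = 3 each), which is 19.1% more, with a log2 fold change of 0.25 (95% interval 0.11 to 0.40, edgeR adjusted p = 0.0484). The exact permutation test on the 6 libraries gave p = 0.1, the smallest that 3 against 3 allow. The change kept its direction without any 1 library (0.21 to 0.29). It stayed past the threshold only without Pdcd1f/f replicate 1 (adjusted p = 0.00714), when 21.6% of all genes passed. It was lost without Pdcd1f/f replicate 2 (0.210) or 3 (0.198) and without Pdcd1f/fLysMCre replicate 1 (0.169), 2 (0.129) or 3 (0.0900, edgeR throughout). With RLE size factors the adjusted p was 0.0512. With offsets for GC content and length the log2 fold change was 0.17 (adjusted p = 0.00727), when 18% of all genes passed (9.44% higher and 8.57% lower).

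Jak3, on chromosome 8 from 71676296 to 71690575, had 1902, 2586 and 2680 normalized counts in the controls and 1789, 1333 and 1889 in the Pdcd1f/fLysMCre libraries. The genotypes did not overlap, but Pdcd1f/f replicate 1 was close to the highest Pdcd1f/fLysMCre library, and the lowest library of each genotype was the one with the opposite relation to GC content. The mean was 2390 ± 425 in the controls and 1671 ± 296 in the others (SD, n = 3 each). The log2 fold change was −0.51 (95% interval −0.85 to −0.18, edgeR adjusted p = 0.0722), not past the threshold. Jak3 transcripts are 61.0% G and C, the most among the 9 genes. With GC and length offsets, when 18% of all genes passed, the log2 fold change was −0.31 and past the threshold (edgeR adjusted p = 0.00138). Without Pdcd1f/f replicate 1, when 21.6% of all genes passed, it was −0.66 (edgeR adjusted p = 0.00245). That fit still held Pdcd1f/fLysMCre replicate 2, whose deviations also fell with GC content (Spearman rho −0.728). DESeq2 gave −0.52 with an adjusted p of 0.00832, when 12.8% of all genes passed, and over the 15 alternatives the adjusted p ranged from 6.01e-07 to 0.27. Insl3 shares 1362 bases with Jak3 on the same strand and had at most 7.42 normalized counts in any library.

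Jak1, on chromosome 4 from 101152367 to 101265282, had 14050, 13429 and 13353 normalized counts in the controls and 13455, 14689 and 13331 in the Pdcd1f/fLysMCre libraries. The genotypes overlapped, with the highest value in Pdcd1f/fLysMCre replicate 2. The log2 fold change was 0.02 with a 95% interval of −0.11 to 0.16 (edgeR adjusted p = 0.846), so that a change beyond 0.16 in either direction lies outside this interval. Tyk2, on chromosome 9 from 21104068 to 21131243, had 2238, 2658 and 2957 normalized counts in the controls and 2216, 2082 and 2441 in the Pdcd1f/fLysMCre libraries. Pdcd1f/f replicate 1 lay among the Pdcd1f/fLysMCre libraries. The log2 fold change of Tyk2 was −0.22 (95% interval −0.45 to 0.01, edgeR adjusted p = 0.228). Without Pdcd1f/f replicate 1, when 21.6% of all genes passed, it was −0.33 and past the threshold (edgeR adjusted p = 0.0155). With GC and length offsets it was −0.08 (edgeR adjusted p = 0.276).

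Among the STAT genes, Stat3 and Stat2 had small and even differences. Stat3, the STAT of IL-6 and IL-10, lies on chromosome 11 from 100885098 to 100939540 and had 12553, 12926 and 13328 normalized counts in the controls and 11899, 11441 and 11729 in the Pdcd1f/fLysMCre libraries. Every control was above every Pdcd1f/fLysMCre library, at means of 12935 ± 388 and 11690 ± 232 (SD, n = 3 each), and the log2 fold change was −0.14 (95% interval −0.27 to −0.02, edgeR adjusted p = 0.161). It was past the threshold in none of the 15 alternatives that left out at most 1 library, where the adjusted p ranged from 0.0533 to 0.431. Stat2, the partner of IRF9 in the response to type I interferon, lies on chromosome 10 from 128270559 to 128292849 and had 3824, 3981 and 4063 normalized counts in the controls and 3712, 3685 and 3789 in the Pdcd1f/fLysMCre libraries. These libraries also did not overlap, but the gap from 3824 to 3789 was smaller than the spread within the controls. The log2 fold change of Stat2 was −0.08 (95% interval −0.22 to 0.05, edgeR adjusted p = 0.422).

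Stat6, on chromosome 10 from 127642986 to 127660957, had 8107, 9100 and 9053 normalized counts in the controls and 8164, 8007 and 8418 in the Pdcd1f/fLysMCre libraries. Pdcd1f/f replicate 1 fell within the Pdcd1f/fLysMCre range, and the log2 fold change was −0.09 (95% interval −0.24 to 0.05, edgeR adjusted p = 0.418). Stat5a, on chromosome 11 from 100859351 to 100885169, had 1249, 1419 and 1481 normalized counts in the controls and 1299, 1121 and 1401 in the Pdcd1f/fLysMCre libraries, which overlapped. Its log2 fold change was −0.12 (95% interval −0.34 to 0.11, edgeR adjusted p = 0.508) and 0.03 with GC and length offsets, so its sign depended on this setting. Stat5a and Stat3 face each other on opposite strands and share 72 bases. Stat4, on chromosome 1 from 51987148 to 52107189, had 173, 178 and 169 normalized counts in the controls and 201, 259 and 162 in the Pdcd1f/fLysMCre libraries. The 3 controls lay within the spread of the others, of which replicate 2 stood highest and replicate 3 lowest of all 6. The log2 fold change of Stat4 was 0.26 (95% interval −0.11 to 0.64, edgeR adjusted p = 0.371). It was 0.07 without Pdcd1f/fLysMCre replicate 2 and 0.4 without Pdcd1f/fLysMCre replicate 3. Stat4 is also a lymphocyte gene, and the summed T and NK cell markers were 704 to 806 normalized counts in the controls and 705 to 870 in the Pdcd1f/fLysMCre libraries, with Cd8a, Cd8b1 and Ncr1 under 5 counts in every library and Cd5 the only 1 of the 5 tested markers past the threshold. Most of this sum was Cd4 (566 to 652 and 503 to 614 normalized counts). The other markers summed to 138 to 172 in the controls and 201 to 270 in the Pdcd1f/fLysMCre libraries. Cd5 (log2 fold change 1.01, edgeR adjusted p = 0.0331) and Gzmb (0.60, adjusted p = 0.193) made up this gap, and the remaining 13 markers overlapped, at 50.4 to 74.9 and 54.3 to 71.8. Their part in the Stat4 values was not tested.

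The direction of the 9 changes went with GC content. The 3 genes with a positive change (Jak1, Jak2 and Stat4) had transcripts of 44.3% to 47.6% G and C, and the 6 with a negative change had 51.9% to 61.0%. With GC and length offsets all 9 changes were closer to 0, Jak1 (−0.01) and Stat5a (0.03) changed sign, and Jak2 and Jak3 were past the threshold. Without Pdcd1f/f replicate 1 and Pdcd1f/fLysMCre replicate 2 together, a choice made after the data were seen, 5 of the 9 passed, Jak2 higher (0.28) and Jak3 (−0.52), Tyk2 (−0.27), Stat3 (−0.16) and Stat6 (−0.13) lower, when 26.2% of all genes passed.

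**Figure D3:**
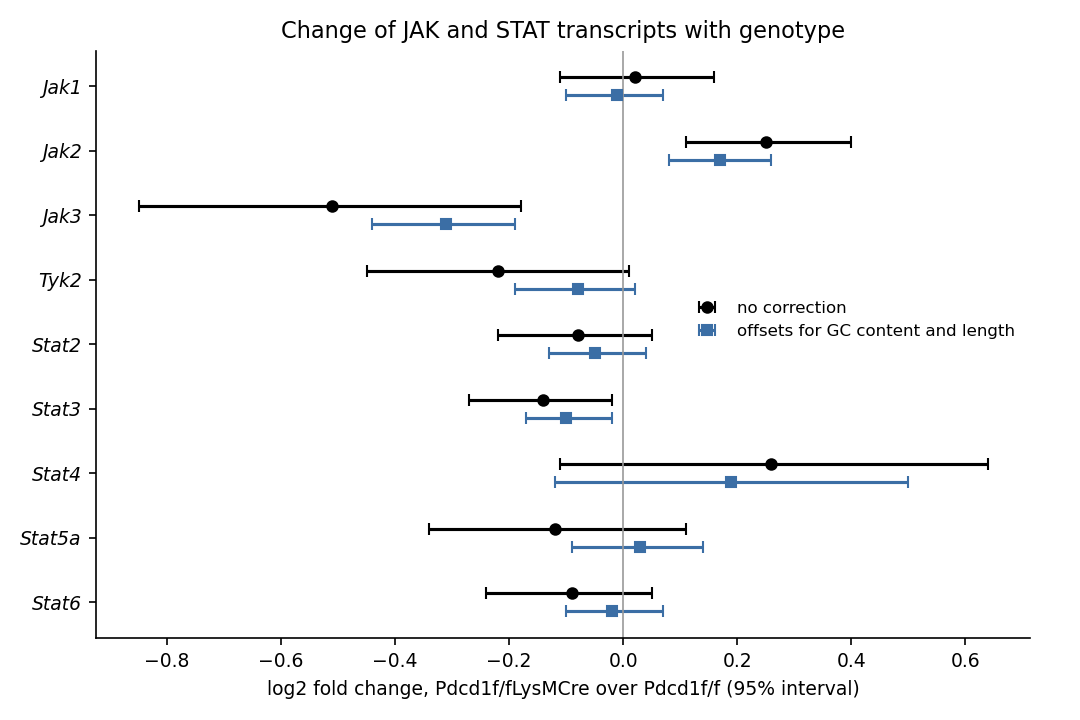
Log2 fold change (Pdcd1f/fLysMCre over Pdcd1f/f) of the 9 genes from edgeR with 95% intervals, without correction (black circles) and with offsets for GC content and length (blue squares), n = 3 libraries per genotype. The intervals of Jak2, Jak3 and Stat3 leave out 0 in both fits, and the estimates with offsets are closer to 0 for all 9 genes.

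Among the receptor chains that the kinases serve, calls were mostly lower. This list and those below were chosen with earlier results of these data known, so their shares of calls are a description only. Of 38 listed subunits 32 were tested, of which Il7r was higher and 6 were lower in Pdcd1f/fLysMCre TAMs, against 2.42% and 3.01% of all genes, and the median log2 fold change of the list was −0.15. The 6 include Epor and Lepr, which had under 10 counts in at least 1 Pdcd1f/fLysMCre library. With at least 10 counts required in every library, 1 was higher and 4 were lower, against 6.2% of all genes. The count of 7 became 13 without Pdcd1f/f replicate 1, 3 without Pdcd1f/f replicate 2 and between 4 and 6 without any other library, and the offsets gave 1 higher and 9 lower. Over all genes the share called was 5.43%, but 21.6% without Pdcd1f/f replicate 1, 1.51% to 3.56% without another library, 18% with the offsets, 12.8% by DESeq2 and 7.32% with at least 1 count in any library, and 24.2% had an unadjusted p under 0.05. Il4ra, the chain shared by the IL-4 and IL-13 receptors, whose signal goes to STAT6, had 28274, 33575 and 37187 normalized counts in the controls and 18088, 16297 and 19595 in the Pdcd1f/fLysMCre libraries. The highest Pdcd1f/fLysMCre library was well under the lowest control, and the log2 fold change was −0.87 (SE 0.10, edgeR adjusted p = 0.00102), past the threshold in all 6 leave-one-out fits. Il7r, the IL-7 receptor chain that pairs with the common gamma chain and is served by JAK1 and JAK3, had 3339, 3050 and 3193 normalized counts in the controls and 4912, 5509 and 5070 in the others. It rose by 0.69 (SE 0.07, edgeR adjusted p = 0.00036), also in all 6 of these fits. Il7r is a lymphocyte gene as well, and of the T and NK cell markers given for Stat4, Cd5 and Gzmb were higher in every Pdcd1f/fLysMCre library while Cd4 and the sum of the remaining 13 overlapped. Their part in the Il7r change was not tested. The common gamma chain Il2rg had 8257 to 8980 normalized counts in the controls and 8983 to 9107 in the Pdcd1f/fLysMCre libraries, and a log2 fold change of 0.06 (edgeR adjusted p = 0.604).

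Ifngr1, the ligand-binding chain of the interferon-gamma receptor, had 12270, 11928 and 11869 normalized counts in the controls and 9655, 10431 and 9582 in the Pdcd1f/fLysMCre libraries, which did not overlap. It fell by 0.28 on the log2 scale (SE 0.06, edgeR adjusted p = 0.0254), and it passed in 2 of the 6 leave-one-out fits. Its partner Ifngr2 had a log2 fold change of 0.01, and the type I interferon receptor chains Ifnar1 and Ifnar2 had 0.05 and 0.03, none past the threshold. Lepr, the leptin receptor, fell from 34.3, 36.9 and 39.4 to 11.1, 17.1 and 2.95 normalized counts (log2 fold change −1.80, SE 0.45, edgeR adjusted p = 0.0451). Epor, the erythropoietin receptor, had 35 counts in all in the control libraries and 3 in the Pdcd1f/fLysMCre libraries, a ratio of 12.7 with a 95% exact interval of 4.01 to 64.7 that covers counting error only. Epor (11, 11 and 13 counts) and Lepr (37, 33 and 36 counts) reached the filter through their control libraries, and Lepr had 12, 18 and 3 counts in the Pdcd1f/fLysMCre libraries. Their calls in edgeR, of which that of Lepr passed in 2 of the 6 leave-one-out fits, are given no weight here. Lifr and Csf3r, named after their values were seen, fell by 0.68 and 0.51 (adjusted p = 0.00393 and 0.00686 from edgeR). Beside these receptors, the fibroblast or fibrosarcoma marker Col1a2 had 121 to 146 normalized counts in the controls and 52.1 to 75.2 in the Pdcd1f/fLysMCre libraries (edgeR adjusted p = 0.0121). Postn was also lower in every Pdcd1f/fLysMCre library (9.27, 10.1 and 5.48 against 4.63, 4.76 and 0.983) but did not reach the filter. Col1a1 (log2 fold change −0.78), Pdgfrb (−0.42), Col3a1 (−0.07), Dcn (0.03), Pdgfra (0.05) and Acta2 (0.35) overlapped and did not pass. The part of these markers was not tested. Beside Csf3r, the G-CSF receptor of neutrophils, the neutrophil markers summed to 4099 to 4474 normalized counts in the controls and 3725 to 4046 in the Pdcd1f/fLysMCre libraries, with Ly6g and Camp under 5 counts throughout. Mmp8 alone was past the threshold (log2 fold change −0.48), and without it the sums were 1739 to 2256 and 2155 to 2314, which overlapped. S100a8 (0.23) and S100a9 (0.12) had positive log2 fold changes that did not pass. Retnlg was lower in every Pdcd1f/fLysMCre library, also without passing (−0.95, edgeR adjusted p = 0.11). The part of these markers in the Csf3r change was not tested. The signaling chains Il6st (0.06), Il10ra (−0.23), Csf2ra (−0.20) and Csf2rb (−0.07) were not past the threshold. With GC and length offsets Il10ra was −0.16 and past it (adjusted p = 0.0302), and Csf2ra was −0.05 and was not (adjusted p = 0.626, both edgeR). Il10ra and Csf2ra each passed in 1 of the 6 leave-one-out fits.

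Of 31 listed ligands of these receptors 17 were tested, 4 were higher (23.5%, against 2.42% of all genes) and none was lower, with a list median of 0.03. The count was 5 without Pdcd1f/f replicate 1, 0 or 1 without any other library and 7 with the offsets. In these settings 21.6%, 1.51% to 3.56% and 18% of all genes passed. Csf3, which encodes G-CSF, had 195, 238 and 202 normalized counts in the controls and 311, 304 and 317 in the Pdcd1f/fLysMCre libraries, a log2 fold change of 0.56 (SE 0.12, edgeR adjusted p = 0.0245). Lif, an IL-6 family cytokine, had 617, 633 and 659 in the controls and 860, 862 and 878 in the others (log2 fold change 0.45, SE 0.08, edgeR adjusted p = 0.00928). The genotypes were well apart for both genes. Il6 had a log2 fold change of 0.56 (SE 0.14, adjusted p = 0.0403) and Il10, named after its value was seen, of 0.36 (SE 0.08, adjusted p = 0.0311, both edgeR). Lif passed in 4 and Csf3, Il6 and Il10 in 1 each of the 6 leave-one-out fits. No ligand was past the threshold lower by edgeR, none was lower at an unadjusted p under 0.05, and DESeq2 called none lower.

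**Figure D4:**
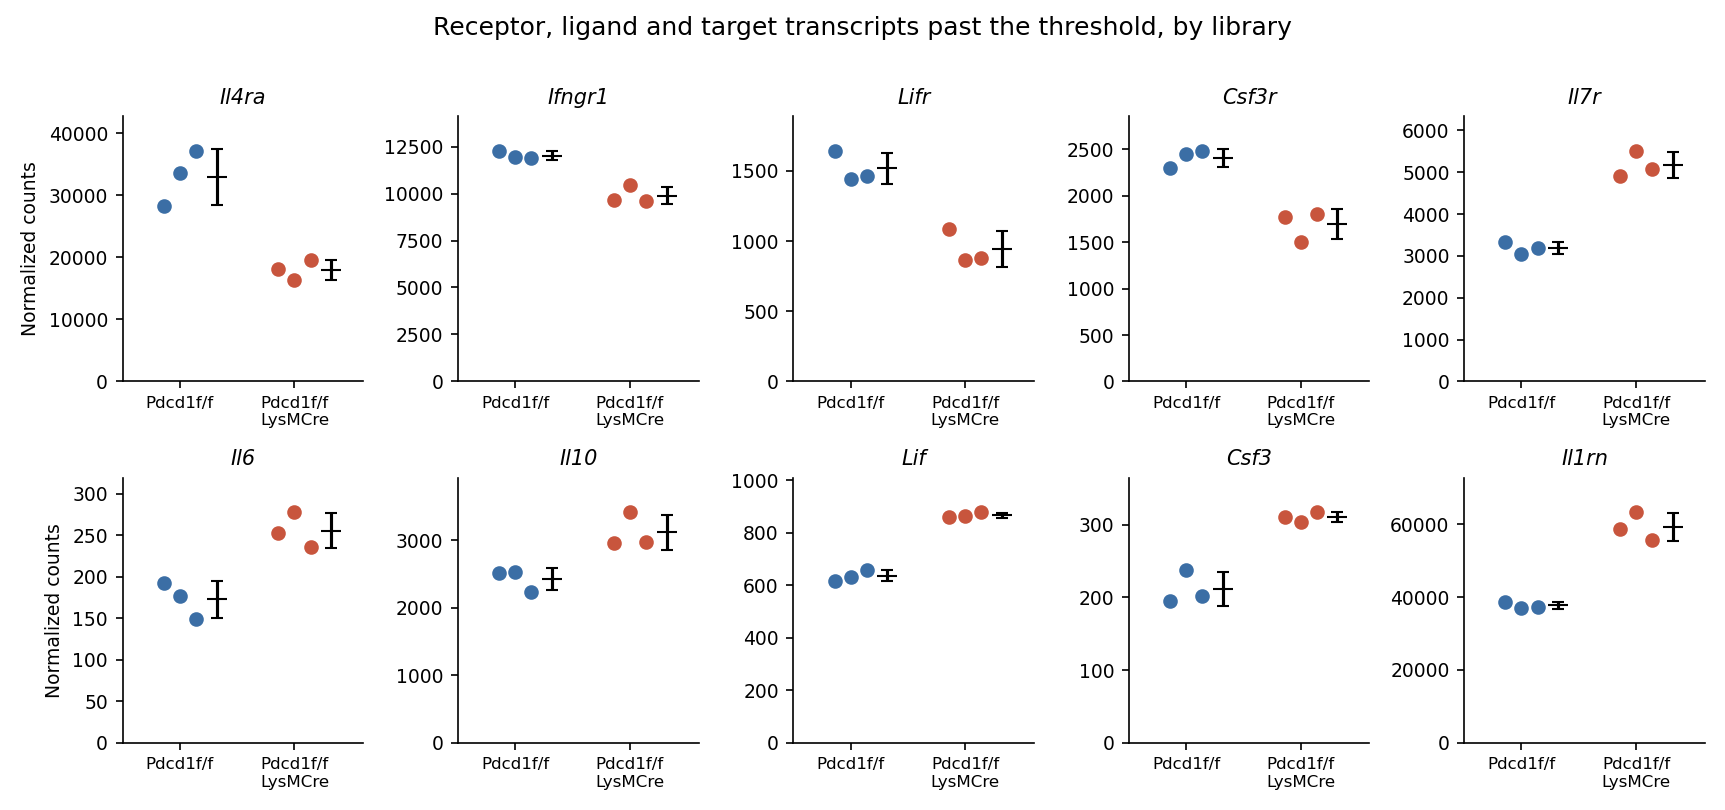
Normalized counts of 5 receptor genes (Il4ra, Ifngr1, Lifr, Csf3r, Il7r), 4 ligand genes (Il6, Il10, Lif, Csf3) and the STAT3 target Il1rn in each TAM library, all past the threshold in edgeR. Circles are libraries, Pdcd1f/f in blue and Pdcd1f/fLysMCre in orange, and the black mark and bar are the mean and SD of 3. In every panel the libraries of the genotypes do not overlap, which was a condition in the rule that named genes from the lists.

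None of the 20 inhibitors and phosphatases and none of the 12 partners and adaptors tested passed the threshold. At an unadjusted p under 0.05 there were 2 higher and 3 lower inhibitors and 1 higher and 1 lower partner, and DESeq2 called no inhibitor and 1 partner, higher. Without Pdcd1f/f replicate 1, when 21.6% of all genes passed, 6 inhibitors (2 higher, 4 lower) and 5 partners (3 higher, 2 lower) did. With the offsets, when 18% of all genes passed, 2 inhibitors and 3 partners did. Socs3, the feedback inhibitor of the IL-6 receptor, had 18262, 21411 and 24220 normalized counts in the controls and 17892, 16396 and 19622 in the Pdcd1f/fLysMCre libraries, which overlapped (log2 fold change −0.24, SE 0.10, edgeR adjusted p = 0.178). Cish, a STAT5-induced inhibitor, had 298, 361 and 358 and then 251, 218 and 300 normalized counts, also overlapping (log2 fold change −0.40, SE 0.14, edgeR adjusted p = 0.122). With GC and length offsets Cish was −0.34 and past the threshold (adjusted p = 0.0426), and Socs3 was −0.07 and was not (adjusted p = 0.238, both edgeR). Socs1 had a log2 fold change of 0.00 that took either sign over the alternatives. Irf9, the DNA-binding partner of STAT2, had 0.07 and Ptpn11, the gene of the phosphatase SHP-2, −0.00.

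Targets of the STATs were counted last. Of 27 target genes of the STAT2 and IRF9 complex 2 were higher and none lower (7.41%, against 5.43% of all genes). This list had 8 higher and 2 lower at an unadjusted p under 0.05, 6 and 2 by DESeq2, 6 and 3 with GC and length offsets and 6 and 5 without both libraries that stand apart in GC, settings in which 24.2%, 12.8%, 18% and 26.2% of all genes passed. Its count of calls was 9 without Pdcd1f/f replicate 1, 2 without Pdcd1f/fLysMCre replicate 3 and 0 without any other single library. Ifit1, which binds foreign RNA, had 3302, 3333 and 3242 normalized counts in the controls and 4048, 4570 and 3993 in the Pdcd1f/fLysMCre libraries, a log2 fold change of 0.35 (SE 0.07, edgeR adjusted p = 0.0167). Rtp4 had 0.34 (SE 0.07, edgeR adjusted p = 0.0163). With each library left out in turn, either gene passed 2 times of 6. The list median was 0.04. Of 19 tested STAT3 targets Il1rn, the IL-1 receptor antagonist, alone passed in edgeR. At an unadjusted p under 0.05 there were 2 higher and 8 lower STAT3 targets, DESeq2 called 1 higher and 3 lower, the offsets gave 4 and 5, and a filter of at least 1 count in any library gave 1 and 7. Of all genes 7.32% passed with this filter. Without Pdcd1f/f replicate 1, when 21.6% of all genes passed, the calls were 1 higher and 8 lower. Il1rn had 38784, 37142 and 37189 normalized counts in the controls and 58667, 63324 and 55822 in the others, and rose by 0.65 (SE 0.06, edgeR adjusted p = 0.000365), in all 6 leave-one-out fits, while the list median was −0.09. Of 18 tested STAT6 targets Slc7a2, a cationic amino acid transporter, and Mrc1, the mannose receptor, were lower, by −0.46 and −0.31 (adjusted p = 0.0219 for each from edgeR), and passed 2 and 3 times of 6 when 1 library was left out, with a list median of −0.16. The offsets gave 1 higher and 5 lower STAT6 targets, and the count with 1 library left out ran from 0 to 4. Mrc1 had 146379, 133243 and 132856 normalized counts in the controls and 111650, 115066 and 104754 in the Pdcd1f/fLysMCre libraries, which did not overlap. None of the 9 STAT5 targets and none of the 4 STAT4 targets tested passed, against 1 higher and 2 lower and 2 lower at an unadjusted p under 0.05. DESeq2 called 1 STAT5 target and 2 STAT4 targets, all lower, and the offsets 2 of each. With 1 library left out the counts ran from 0 to 1 and from 0 to 2.

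Counted once each, 156 pathway genes were tested and 16 passed (10.3%, against 5.43% of all genes), 8 higher and 8 lower. Because the lists were chosen with earlier results of these data known, the larger share is a description only. The 8 lower include Epor and Lepr, whose calls are given no weight here. With at least 10 counts required in every library, 9 were higher and 7 lower, when 6.2% of all genes passed. The count of 16 became 54 without Pdcd1f/f replicate 1, 4 without Pdcd1f/f replicate 2, 8 without Pdcd1f/f replicate 3, and 5, 9 and 14 without Pdcd1f/fLysMCre replicates 1, 2 and 3. In the same order 21.6%, 1.51%, 2.38%, 1.51%, 2.5% and 3.56% of all genes passed. Without both libraries that stand apart in GC, when 26.2% of all genes passed, the receptors had 1 higher and 12 lower, the ligands 6 higher and 0 lower, the inhibitors 2 and 5 and the partners 3 and 2. In that setting the STAT3 targets had 2 higher and 9 lower, the STAT6 targets 0 and 6, the STAT5 targets 0 and 2 and the STAT4 targets 0 and 2.

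**Figure D5:**
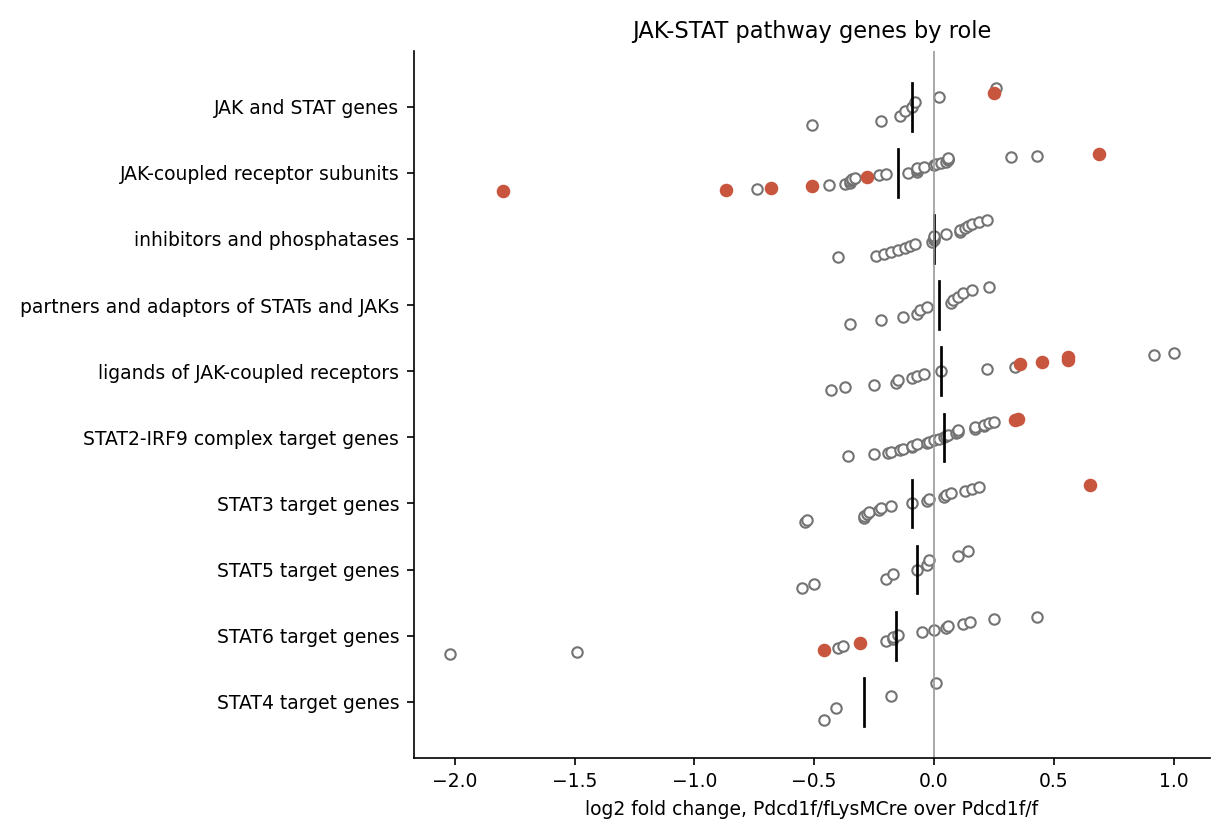
Log2 fold change (Pdcd1f/fLysMCre over Pdcd1f/f) of each tested gene by its role in the JAK-STAT pathway, without Epor, whose Pdcd1f/fLysMCre libraries held 3 counts in all. Filled circles passed an adjusted p of 0.05 in edgeR, open circles did not, and the black bar is the median of the list. Receptor genes past the threshold lie mostly to the left of 0 and ligand genes to the right.

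Within 1 Mb of the 9 genes, 13 of 272 different genes tested passed the threshold (4.78%, against 5.43% of all genes). All 13 were lower, from none near Stat6 to 4 near Tyk2, while of all genes 3.01% were lower and 2.42% higher. Of these 13, Epor near Tyk2 and Lepr near Jak1 belong to the pathway, and both reached the filter through their control libraries. Stat2 and Stat6 share their chromosome with Lyz2, at 11.0 and 10.4 Mb, and Stat4 shares its chromosome with Pdcd1, at 41.9 Mb. The genes most like Jak2 over the 6 libraries were Tpm1 (Pearson r 0.9986), Eprs (0.9962) and Gabpa (0.9959), and 23 genes had r over 0.99. The likeness was computed over the same 6 libraries, which differ in their relation to GC content, and describes them only. Tpm1, with a log2 fold change of 0.28, and Eprs, with 0.42, were past the threshold (adjusted p = 0.0334 and 0.00644 from edgeR), and Gabpa, with 0.19, was not (0.103).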

How the data were processed

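RNA-seq of TAMs was compared between 3 Pdcd1f/f and 3 Pdcd1f/fLysMCre libraries, grouped by their labels. Polyadenylated RNA was made into stranded libraries from 400 ng of total RNA and sequenced as paired-end 42-nt reads. The authors deposited raw counts per gene, made with Cutadapt 2.5, STAR 2.7.3a on GRCm38 and featureCounts (Subread 1.6.2) on Ensembl release 98. The strand setting and the handling of reads with several positions are not given in the sources used here. The authors also deposited normalized values, a signal table made by dividing counts by 1 size factor per library (DESeq2 1.24.0), from 0.895 to 1.08. Normalized counts in the text are these values. Libraries of a genotype differed by more than counting noise (chi-square 5.55 to 43.5 per gene), and each was kept as a replicate.

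Genotypes were compared with edgeR 4.0.16 (R 4.3.3): filterByExpr (minimum count 10, minimum total 15), TMM scaling, a robust glmQLFit and glmQLFTest (two-sided), with Benjamini-Hochberg adjustment over 14469 genes and a threshold of 0.05. Standard errors and 95% intervals come from this fit. RPKM used TMM library sizes and exon lengths of GENCODE M21 (GRCm38), which also gave symbols, positions and GC content. Alternatives were limma-trend (limma 3.58.1) on log2(value + 1), DESeq2 1.42.0, RLE size factors or no scaling beyond library size, a looser filter (1 count anywhere) and a stricter one (10 counts throughout), a replicate block, loess offsets for GC content and length (span 0.5) alone or with that block, leaving out 1 library at a time, a 0.01 threshold, and, chosen after the data were seen, the removal of 2 libraries. Likeness was the Pearson correlation of log2 CPM (prior count 2). Scripts were tested on simulated data. At these depths 3 counts correspond to 0.0583 to 0.0717 CPM, which covers counting error only.

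The 9 genes and the pathway lists were chosen with earlier results of these data known. The genes named are the 9, from each list those past the threshold without overlap (up to 3 largest increases and 3 largest decreases), a set of receptor chains and regulators named whatever their values, Pdcd1, Lyz2 and the 3 genes most like Jak2. Il2rg, named beside Il7r, and Lifr, Csf3r and Il10 are outside this rule. Cell type markers of macrophages, T and NK cells, B cells, neutrophils, dendritic cells and fibroblasts were summed. B cell markers were 350 to 394 normalized counts in the controls and 301 to 356 in the Pdcd1f/fLysMCre libraries (169 to 209 and 120 to 149 without Ighm), dendritic cell markers 247 to 325 and 329 to 394 (104 to 144 and 197 to 200 without Ccr7, none past the threshold), and fibroblast or fibrosarcoma markers 3114 to 3382 and 2977 to 3272, most of it Dcn and Col3a1. One macrophage marker is not reported here.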

Additional observations from a re-analysis of the deposited data

How the results depend on the processing

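No change of normalization, filter or test reversed Jak2, Jak3, Tyk2, Stat2, Stat3, Stat4 or Stat6. Jak1 (0.02) was −0.01 with GC and length offsets, −0.02 with the offsets and the replicate block and −0.00296 without both libraries that stand apart in GC, and Stat5a was 0.03 with the offsets, with or without the block. Jak2 was 0.25 with RLE size factors, 0.24 with library size alone and 0.25 with limma-trend, no longer past 0.05, and 0.25 but not past a threshold of 0.01. Jak3 was past the threshold at −0.51 with at least 1 count in any library and with the replicate block, −0.52 with DESeq2, −0.31 with the offsets alone or with the block, and −0.52 without both libraries, where Tyk2 (−0.27), Stat3 (−0.16) and Stat6 (−0.13) were past it too. The cause was not tested.

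Of the 9 genes, 0 passed with RLE size factors, library size alone, limma-trend or a threshold of 0.01. With at least 1 count, DESeq2, the block or the offsets with or without the block 2 passed, and without both libraries 5 did. Over all genes 782 passed with RLE size factors, 807 with library size alone and 756 with limma-trend. The share of all genes was 7.32% with at least 1 count, 12.8% with DESeq2, 18% with the offsets and 26.2% without both libraries. The counts over all genes (786) and over the pathway genes (16) were 1951 and 42 with at least 1 count, 1599 and 30 with DESeq2, 2604 and 50 with the offsets, 2717 and 50 with the offsets and the block, 3757 and 63 without both libraries, and 283 and 6 at a threshold of 0.01. With each library left out they ranged from 222 to 3181 and from 4 to 54, and that of the 9 genes from 0 to 3. Fold changes then ranged from −0.02 to 0.04 for Jak1, 0.21 to 0.29 for Jak2, −0.66 to −0.37 for Jak3 and −0.33 to −0.12 for Tyk2. They ranged from −0.12 to −0.07 for Stat2, −0.17 to −0.12 for Stat3, 0.07 to 0.4 for Stat4, −0.2 to −0.03 for Stat5a and −0.15 to −0.06 for Stat6. Those of Ifnar2 ran from −0.01 to 0.04, of Ifngr2 from −0.00997 to 0.02, of Socs1 from −0.14 to 0.14 and of Ptpn11 from −0.03 to 0.01. Signs near 0 also turned for Csf2rb (0.00204 with offsets, 0.00221 with the block added), Ifnar2 (−0.0014 without both libraries), Ifngr2 (−0.00955 with library size alone, −0.02 without both), Socs1 (−0.000865 with RLE, −0.02 with library size alone, −0.000553 with at least 1 count, −0.00161 with DESeq2, −0.05 without both) and Ptpn11 (0.01 with offsets, with or without the block).

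Deviations of libraries with the same replicate number correlated at −0.01321, −0.09702 and 0.2195 over 14469 genes, over 0.1 for replicate 3 alone, so the numbers were not taken as pairs. The replicate block moved the count of all genes to 1027 and of the 9 to 2, and replicate 3 alone correlated best with its own number in both genotypes. Genes with few counts, such as Pdcd1 and Epor, are limited by depth.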
